A study of Rattus norvegicus with 15 samples.

Results

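The glycine receptor and glycine transporter genes examined were 6 genes of the rat, Glra1, Glra2, Glra3, Glrb, Slc6a5 and Slc6a9, chosen by symbol. Each matched 1 RefSeq transcript record among the 18278 records counted, so all 6 were found. The genes were proposed because of their CPM (read counts scaled to a common library size) in the hippocampal libraries, set out by group and by whether Neurod6 lay under 5 CPM. Their hippocampal differences between VNS and control are therefore a description, with no test. Rats given vagus nerve stimulation (VNS) had an implanted stimulator that ran for 30 min a day over 4 days, and controls had a sham device implanted. The 4 VNS and 3 control hippocampal libraries were made from ribosome-depleted total RNA, and their rats were also tested for novelty preference for 10 min on days 2 to 4. For cortex there were 4 VNS and 4 control libraries, of polyA-selected RNA. Brains were taken straight after stimulation on day 4, and the labels give neither strain nor age. Nothing in the labels says whether rats were pooled or shared between libraries, so a p-value measures only the spread between these libraries.

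Glycine receptors are chloride channels built from alpha and beta subunits, and they carry much of the fast inhibition in spinal cord and brainstem. The alpha subunits bind glycine, and the beta subunit ties the receptor to gephyrin, the scaffold under inhibitory synapses. Glycine is cleared by a pair of sodium-coupled transporters, GlyT2 (Slc6a5) on the terminals of glycinergic neurons and GlyT1 (Slc6a9) mainly on astrocytes. In the forebrain, GlyT1 also sets the level of the glycine that acts as a co-agonist at NMDA receptors.

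The hippocampal control libraries did not resemble each other, which bears on every value that follows. The level of Neurod6, which encodes a transcription factor made in forebrain excitatory neurons, was 207.4, 58.9, 125.0 and 105.4 CPM in VNS libraries 1 to 4 and 0.652, 1.05 and 81.4 CPM in control libraries 1 to 3. Control libraries 1 and 2 were thus the columns under 5 CPM, with 1.05 CPM the value just under that limit and 58.9 CPM the value just over it. Slc17a7, which loads glutamate into vesicles in most hippocampal excitatory neurons, had 1006 to 1540 CPM in VNS libraries and 237.2, 4.09 and 1103 CPM in control libraries 1 to 3. Of 9 forebrain excitatory records with counts, control library 1 was below every VNS library in 8 and control library 2 in 9. The exception was Prox1, a marker of dentate granule cells, at 84.2 to 163.8 CPM in VNS libraries and at 89.8, 15.3 and 80.0 CPM in control libraries 1 to 3. The list, of which 9 of 10 genes were matched, summed to 3011 to 4677 CPM in VNS libraries and to 692.4, 163.1 and 3583 CPM in control libraries 1 to 3. Hippocampal libraries held 16728486 to 51463555 counts, of which ribosomal and 7SL RNA records took 17.2% to 74.3% in VNS and 18.5% to 27.9% in control libraries. VNS library 3 had the fewest other counts, 4301901, so its low values are the least precise. CPM here were scaled with TMM, which corrects library sizes for such differences in composition, and intervals are exact 95% Poisson intervals that cover counting error only.

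Promoter sequences are shown for 3 members to set different hippocampal profiles side by side. Glra3 and Slc6a9 were highest in control libraries 1 and 2, whereas Slc6a5 was not. The sequences run from 250 bases before to 50 bases after the RefSeq start, 5′ to 3′ along the gene, in build GRCr8, and capitals mark GC boxes (GGGCGG on either strand).
Glra3, chr16:39856957-39857256, minus strand: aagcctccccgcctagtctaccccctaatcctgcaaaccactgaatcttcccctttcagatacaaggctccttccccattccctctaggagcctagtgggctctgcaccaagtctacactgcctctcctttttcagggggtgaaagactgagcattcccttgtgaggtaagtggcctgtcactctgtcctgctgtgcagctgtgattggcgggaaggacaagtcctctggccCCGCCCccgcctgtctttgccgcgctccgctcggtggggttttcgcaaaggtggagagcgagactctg
Slc6a9, chr5:136659826-136660125, plus strand: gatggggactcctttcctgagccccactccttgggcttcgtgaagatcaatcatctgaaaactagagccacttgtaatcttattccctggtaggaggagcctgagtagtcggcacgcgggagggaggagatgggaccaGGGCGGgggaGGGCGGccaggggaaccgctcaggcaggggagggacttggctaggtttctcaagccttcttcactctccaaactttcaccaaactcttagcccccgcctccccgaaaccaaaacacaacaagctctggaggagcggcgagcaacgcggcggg
Slc6a5, chr1:108781303-108781602, plus strand: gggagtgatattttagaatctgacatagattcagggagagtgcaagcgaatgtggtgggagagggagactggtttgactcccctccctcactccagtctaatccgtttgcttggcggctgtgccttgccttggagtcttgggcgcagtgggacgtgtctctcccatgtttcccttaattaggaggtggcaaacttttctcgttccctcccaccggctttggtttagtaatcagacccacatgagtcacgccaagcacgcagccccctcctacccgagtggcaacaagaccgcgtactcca
The GC box was found once in Glra3 and at 2 positions in Slc6a9, while these letters were not in the Slc6a5 window. It is present in 33.1% of 33469 rat promoter windows of this length. TATAAA, found in 14.2% of windows, was in none of these 3 but was in the Glra2 window, 11 bases before the start. CCAAT, held by 37.5% of windows, was in Glra3 alone among the 5 members with a sequence, which were all but Glra1. E-boxes (CANNTG, in 72.1% of windows) were present in all 3. The Glrb window had the most CpG dinucleotides, 28, against 14 in Slc6a9, 12 in Slc6a5, 10 in Glra3, 9 in Glra2 and a median of 7 over all windows. No GC box in the 3 printed windows overlapped another motif searched, each motif was searched on both strands, and a match is a description of the sequence, not a binding site.

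Glra1 encodes the alpha 1 subunit of the adult receptor, the one mutated in human startle disease. Its record, NM_013133, has 9 exons on chromosome 10 from 40687417 to 40784393 on the minus strand (rn5, the build of the count files for all such positions). Glra1 was at 0.800, 3.06, 0.813 and 0.644 CPM across VNS libraries 1 to 4, from 54, 63, 4 and 26 counts. In control libraries 1 to 3 it was at 18.8, 37.1 and 0.207 CPM, from 923, 2048 and 10 counts. Control libraries 1 and 2 stood above all the others and control library 3 below all VNS libraries, so the groups overlapped. The lowest control value, with an interval of 0.0993 to 0.381 CPM, lay 179.2 times below the highest. Within VNS the highest library was 4.75 times the lowest. The group means were 1.33 ± 1.16 CPM in VNS (SD, n = 4) and 18.7 ± 18.4 CPM in controls (SD, n = 3), and the log2 fold change was -3.77 (SE 1.24). Without control libraries 1 and 2 it was 2.41 (SE 1.04) against the 1 control library left, the opposite sign.

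Glra3 encodes the alpha 3 subunit, known in the mouse for its place in pain pathways of the dorsal horn. The record, NM_053724, lies on chromosome 16 from 37482429 to 37711434, with 9 exons on the minus strand. It was at 0.193, 1.89, 0.813 and 0.223 CPM in the VNS libraries, in order, and at 2.22, 15.9 and 0.104 CPM in control libraries 1 to 3. Control library 2, with 879 counts, was alone far above the rest, and control library 3, with 5 counts, was again lowest. In contrast to Glra1, control library 1 was close to the highest VNS library, VNS library 2, whose interval of 1.35 to 2.59 CPM overlapped its own of 1.82 to 2.68 CPM. The log2 fold change was -3.00 (SE 1.36), with means of 0.781 ± 0.795 CPM in VNS (SD, n = 4) and 6.08 ± 8.59 CPM in controls (SD, n = 3). It was -0.62 without control library 2 alone and 2.32 (SE 1.35) without control libraries 1 and 2.

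Glra2 encodes the alpha 2 subunit, the form best known from developing neurons and from forebrain. The record, NM_012568, lies on chromosome X from 30995476 to 31214065. It was at 6.06, 8.11, 10.4 and 6.05 CPM in the VNS libraries, in order, and at 12.9, 18.3 and 5.51 CPM in control libraries 1 to 3. The order of the control libraries was that of Glra1, with a much smaller span, 3.33-fold between the highest and the lowest. VNS library 3, at an interval of 7.72 to 13.6 CPM from 51 counts, could not be told from control library 1 by counting error. The means were 7.65 ± 2.06 CPM in VNS (SD, n = 4) and 12.2 ± 6.44 CPM in controls (SD, n = 3), and the log2 fold change was -0.71 (SE 0.38). It was -0.30 without control library 2, -1.06 without control library 3 and 0.42 (SE 0.37) without control libraries 1 and 2.

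**Figure D1:**
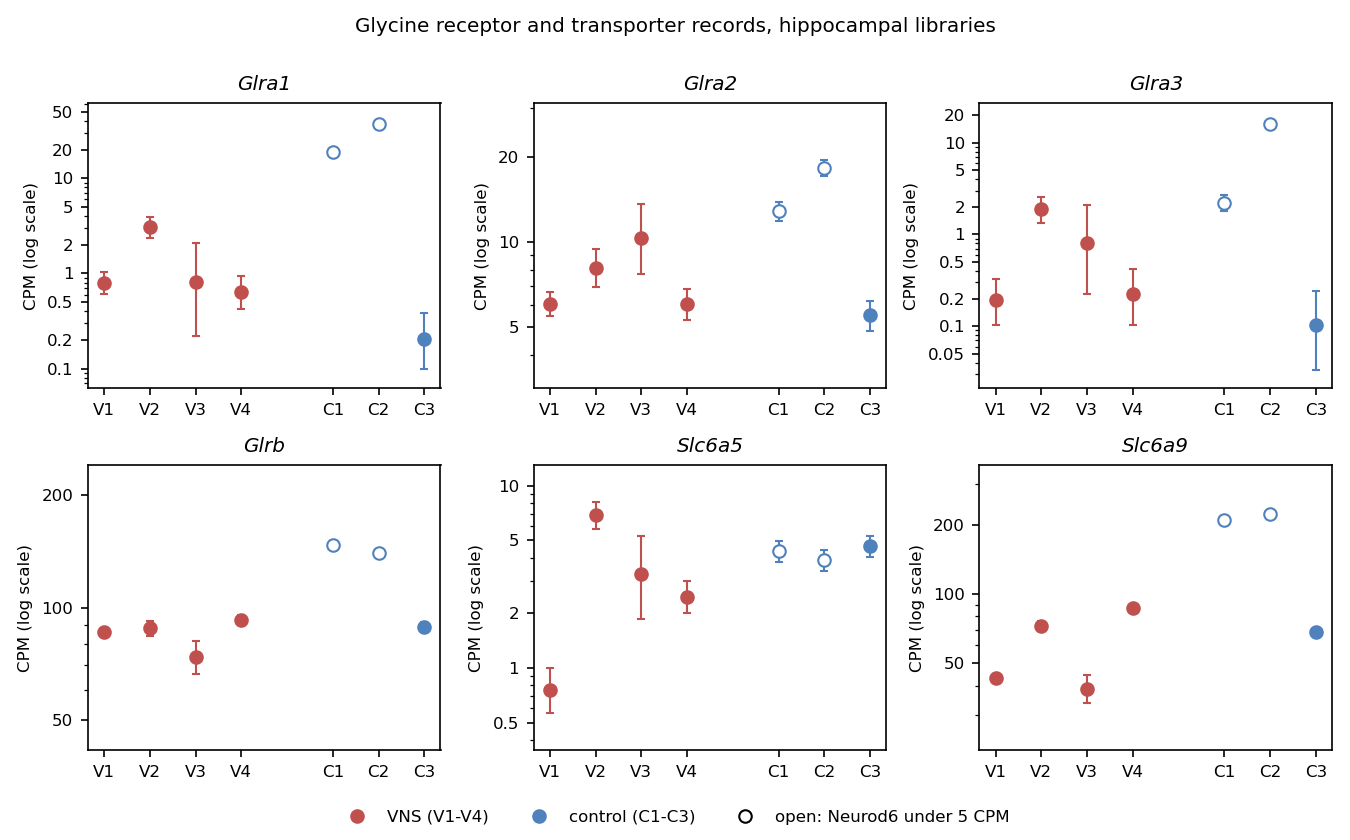
CPM (log axis) of the 6 genes in VNS (V1 to V4, red) and control (C1 to C3, blue) hippocampal libraries, with exact 95% Poisson intervals, and open symbols for libraries with Neurod6 under 5 CPM. C1 and C2 are the highest 2 libraries for every gene but Slc6a5, where V2 at 6.89 CPM is highest and V1 at 0.756 CPM lowest.

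Per kilobase of record, which allows levels to be compared between genes, the make-up of the alpha subunits differed between libraries. Glra2 made up 78.5%, 46.9%, 76.5% and 80.1% of the summed Glra1, Glra2 and Glra3 level in VNS libraries 1 to 4, against 27.8%, 16.3% and 90.8% in control libraries 1 to 3. Glra1 made up 15.5%, 26.4%, 8.96% and 12.7% in VNS libraries and 60.6%, 49.3% and 5.09% in control libraries. Glra2 was thus the main alpha record in all VNS libraries and in control library 3, and Glra1 in control libraries 1 and 2. VNS library 2 stood between, with Glra3 at 26.6%, against 6.06% to 14.6% in the other VNS libraries. The precision is lowest for VNS library 3, with 59 alpha counts, of which Glra2 held 86.4% (exact 95% binomial interval 75.0% to 94.0%, on counts not divided by length). The summed alpha level was 2.43, 5.44, 4.27 and 2.38 CPM per kb in VNS libraries and 14.6, 35.4 and 1.91 CPM per kb in controls. Glra4, an alpha gene not among the members, was at 0.0889 to 0.813 CPM in VNS libraries and at 0.509, 1.79 and 0.0414 CPM in control libraries 1 to 3.

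**Figure D2:**
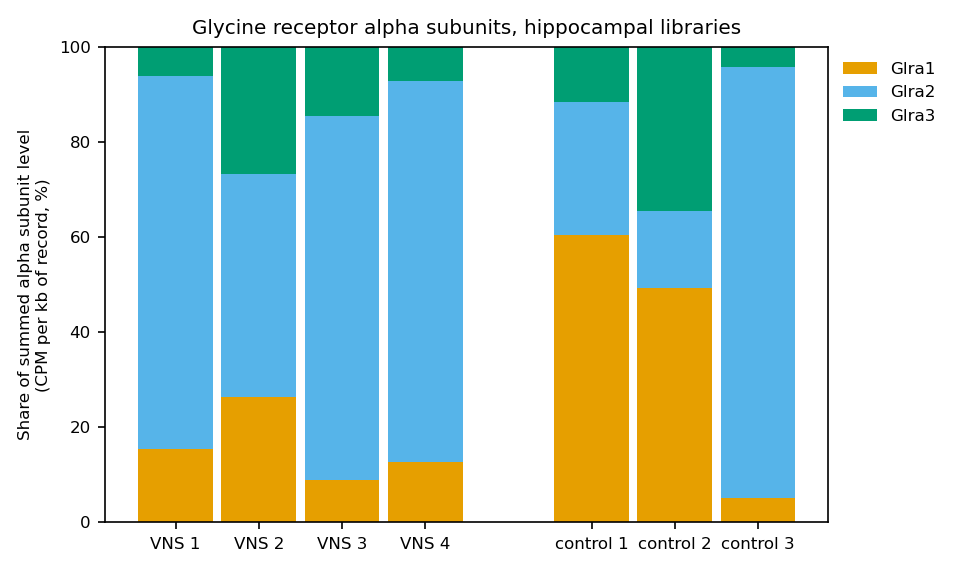
Share of Glra1, Glra2 and Glra3 in their summed level (CPM per kb of record, stacked to 100%) in each hippocampal library, VNS at the left and controls at the right. Glra2 fills 76.5% or more of the bar in VNS 1, 3 and 4 and in control 3, and Glra1 leads in controls 1 and 2.

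Glrb encodes the beta subunit, which carries the gephyrin-binding loop, and its transcript is known to be widespread in brain regions with little glycinergic input. The record, NM_053296, has 9 exons on chromosome 2 from 199179990 to 199250360. Glrb was at 86.0, 88.0, 73.6 and 92.6 CPM in the VNS libraries, in order, and at 147.5, 140.2 and 88.6 CPM in control libraries 1 to 3. Control library 3 fell within the VNS libraries and the other controls lay above them. The controls spanned 1.66-fold, far less than the alpha subunits. The log2 fold change was -0.56 (SE 0.19), with means of 85.0 ± 8.13 CPM in VNS (SD, n = 4) and 125.4 ± 32.1 CPM in controls (SD, n = 3), and it was -0.07 (SE 0.20) without control libraries 1 and 2. Per kilobase, Glrb was 10.8 to 26.1 times the summed alpha level in VNS libraries and 6.77, 2.65 and 31.1 times in control libraries 1 to 3.

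Slc6a9 was the transporter record with the higher level. Its record, NM_053818, has 14 exons on chromosome 5 from 140458723 to 140492746, of which 23 exonic bases are shared with Ccdc24 on the other strand. Hippocampal reads were counted without strand, but Ccdc24 was at 0.0971 to 0.813 CPM in VNS and 0.166 to 0.468 CPM in control hippocampal libraries. Slc6a9 was at 43.2, 72.7, 38.8 and 87.0 CPM in the VNS libraries, in order, and at 209.0, 223.8 and 68.2 CPM in control libraries 1 to 3. Control libraries 1 and 2 were 2.40 and 2.57 times the highest VNS library, while control library 3 was below VNS libraries 2 and 4. The means were 60.4 ± 23.2 CPM in VNS (SD, n = 4) and 167.0 ± 85.8 CPM in controls (SD, n = 3), and the log2 fold change was -1.46 (SE 0.44). It was -0.18 (SE 0.40) without control libraries 1 and 2.

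Slc6a5, whose GlyT2 product is a defining marker of glycinergic neurons, did not follow the receptor genes. The record, NM_203334, has 15 exons on chromosome 1 from 106333982 to 106385232. It was at 0.756, 6.89, 3.25 and 2.45 CPM across VNS libraries 1 to 4, from 51, 142, 16 and 99 counts. The control libraries were at 4.36, 3.90 and 4.66 CPM, from 214, 215 and 225 counts. All controls lay within the range of the VNS libraries, and they differed 1.20-fold from each other, against 179.2-fold for Glra1. The spread was instead within VNS, where library 2 was 9.12 times library 1. The log2 fold change was -0.38 (SE 0.60), and it was -0.02 without VNS library 1, -1.10 without VNS library 2 and -0.52 (SE 0.83) without control libraries 1 and 2. Slc6a9 per kilobase was 124.6, 23.0, 26.0 and 77.3 times Slc6a5 in VNS libraries 1 to 4 and 104.5, 125.2 and 31.9 times in control libraries 1 to 3.

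Across members, Glrb and then Slc6a9 had the highest level per kilobase in all 7 hippocampal libraries. Glrb ranged from 49.4 to 98.9 CPM per kb and Slc6a9 from 12.2 to 70.3 CPM per kb, so their ranges overlapped. Glra2 was the third in the 4 VNS libraries and in control library 3, and Glra1 the third in control libraries 1 and 2. Glra1, Glra3 and Slc6a5 changed places below that, and in VNS library 3 Glra1 and Glra3 rested on 4 counts each and could not be ordered.

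All 6 members passed the filter on low counts in hippocampus, and none of the 6 had VNS and control libraries that did not overlap. Of the 12728 records tested, every VNS library lay below every control library for 4.61% and above for 4.67%. No record passed edgeR's quasi-likelihood test at an adjusted p under 0.05 (0% of 12728, with 1537 at an unadjusted p under 0.05), and DESeq2 called 17. Without control library 3, which leaves control libraries 1 and 2, edgeR called 1377. The members' choice used this contrast, so nothing is read from these counts. The median log2 fold change over all records was -0.01, with 50.8% of them negative, and all 6 member values were negative with all libraries. With control libraries 1 and 2 left out, 3 were positive and 3 negative.

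**Figure D3:**
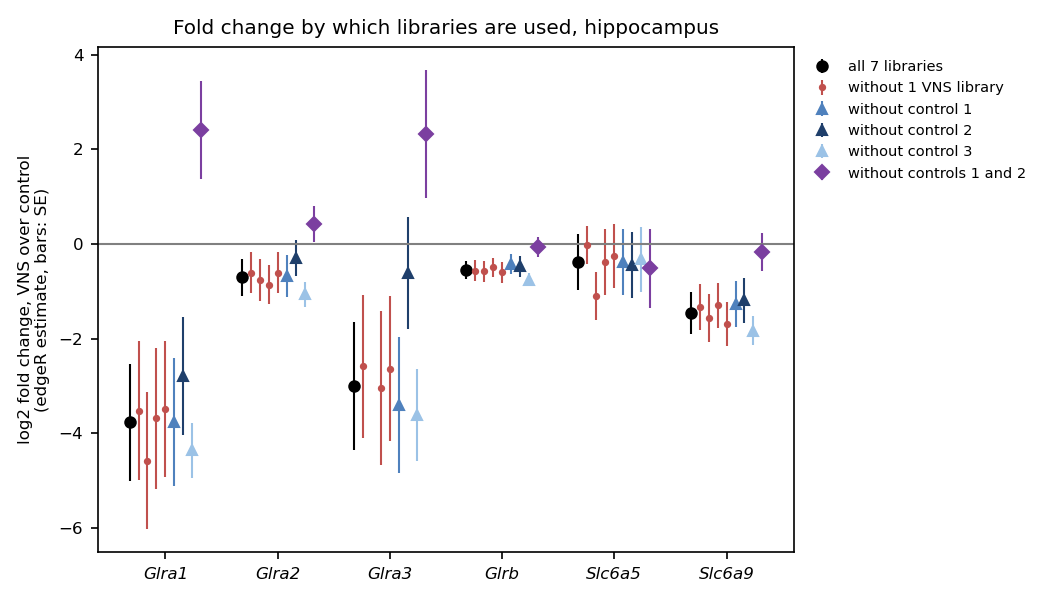
Log2 fold change (VNS over control, edgeR, bars ± SE) of each gene with all 7 hippocampal libraries and with libraries left out. Without controls 1 and 2 (diamonds), Glra1, Glra3 and Glra2 lie above 0 at 2.41, 2.32 and 0.42, and Glra3 has no point without VNS library 2, where it was removed by the low-count filter.

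Some lists of markers of other brain regions were high in control library 1 or 2, and these lists were partly shared. Thalamic, cerebellar and monoamine sums were above every VNS library in both, and the monoamine sum was so in control library 3 too. The brainstem sum was above every VNS library in control library 2 but not 1. The striatal and hypothalamic sums were so in control library 1 but not 2. In these bulk samples, fewer cells of a type and less RNA per cell cannot be told apart. Thalamic markers, with 7 of 9 genes matched, summed to 102.1, 226.3, 88.0 and 125.6 CPM in VNS libraries 1 to 4 and to 1869, 534.7 and 105.7 CPM in control libraries 1 to 3. In control library 1 all 7 thalamic records were above every VNS library. In control library 2 only 3 of 7 were, namely Slc17a6, Calb2 and Ramp3, and Slc17a6 and Calb2 made up most of its sum, with Calb2 at 125.5 CPM against 4.61 to 26.5 CPM in VNS libraries. Slc17a6, the vesicular glutamate transporter of thalamic and brainstem neurons, was at 10.0 to 66.8 CPM in VNS and at 379.7, 347.4 and 36.9 CPM in control libraries. For Prkcd, a kinase gene abundant in thalamus, control library 1 had 794.0 CPM, and the other libraries had 6.19 to 41.2 CPM in VNS and 11.8 and 10.2 CPM in controls. Brainstem selector genes, all 8 matched, summed to 4.95, 14.4, 9.55 and 4.53 CPM in VNS libraries and to 14.2, 79.8 and 4.33 CPM in controls. Among them Tal1, a factor of inhibitory brainstem neurons, was at 1.86 to 5.15 CPM in VNS and 5.52, 32.4 and 1.93 CPM in controls, and Gata2 was at 2.68 to 6.50 CPM in VNS and 4.09, 8.35 and 2.36 CPM in controls. The library with the highest thalamic sum was control library 1, and the one with the highest brainstem sum, and with the highest Glra1, Glra2 and Glra3, was control library 2. VNS library 2 had the highest thalamic and brainstem sums among VNS libraries, along with the highest Glra1, Glra3 and Slc6a5. These lists were not alone, since its cerebellar (37.0 CPM), striatal (136.1 CPM) and monoamine (2.43 CPM) sums were also the highest among VNS libraries. Its forebrain excitatory sum was the lowest of them (3011 CPM). The hypothalamic sum was highest in VNS library 1 and the hindbrain sum in VNS library 3. The part of such tissue in the members' values was not tested.

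Hindbrain and spinal cord markers were mostly Hox genes, and 7 of the 12 listed genes were matched. Their sums were almost 0 in all hippocampal libraries but VNS library 3, both where Glra1 was high and where it was low. They summed to 0.0148, 0.194, 7.32 and 0.248 CPM in VNS libraries 1 to 4 and to 0, 0.0362 and 0.249 CPM in control libraries 1 to 3, with 4 or more of the 7 records at 0 counts in each library. Cerebellar markers summed to 10.8 to 37.0 CPM in VNS libraries and to 88.4, 45.3 and 20.6 CPM in control libraries 1 to 3. The leading genes Car8 and Zic1 are not specific to cerebellum, with Car8 at 4.07 to 5.92 CPM in VNS and 10.0 to 12.2 CPM in controls, and Zic1 at 2.73 to 10.1 CPM in VNS and 69.6, 14.5 and 2.92 CPM in control libraries 1 to 3. Astrocyte markers, the cells where Slc6a9 is best known, summed to 2258 to 3112 CPM in VNS and to 1955, 1859 and 2461 CPM in control libraries. The sum was carried by Gfap, S100b and Gja1, since 11 of 16 records, including all of Aqp4 and Slc1a3, had 0 counts. The list did not move one way. Of 5 records with counts, 1 was above every VNS library in control library 1 and 2 were below. In control library 2, 1 was above and 3 were below. The 1 above was Aldh1l1, at 15.1 to 29.6 CPM in VNS libraries and at 30.8, 49.5 and 24.2 CPM in control libraries 1 to 3, highest where Slc6a9 was highest. Gja1 was at 495.3 to 677.3 CPM in VNS and at 359.5, 482.5 and 570.1 CPM in controls. Of the 3 Slc1a2 records only 1 had counts, so the level of the gene is uncertain. That record was at 10.1 to 21.5 CPM in VNS and at 6.46, 5.38 and 12.4 CPM in controls. Gfap was at 754.6 to 1996 CPM in VNS and at 777.3, 478.2 and 1018 CPM in controls, and S100b at 587.2 to 982.3 CPM in VNS and 781.0 to 843.4 CPM in controls. Oligodendrocyte markers summed to 1851 to 4368 CPM in VNS and to 7078, 5770 and 3845 CPM in control libraries 1 to 3. Microglial markers summed to 137.0 to 167.0 CPM in VNS and 136.1 to 181.1 CPM in controls.

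**Figure D4:**
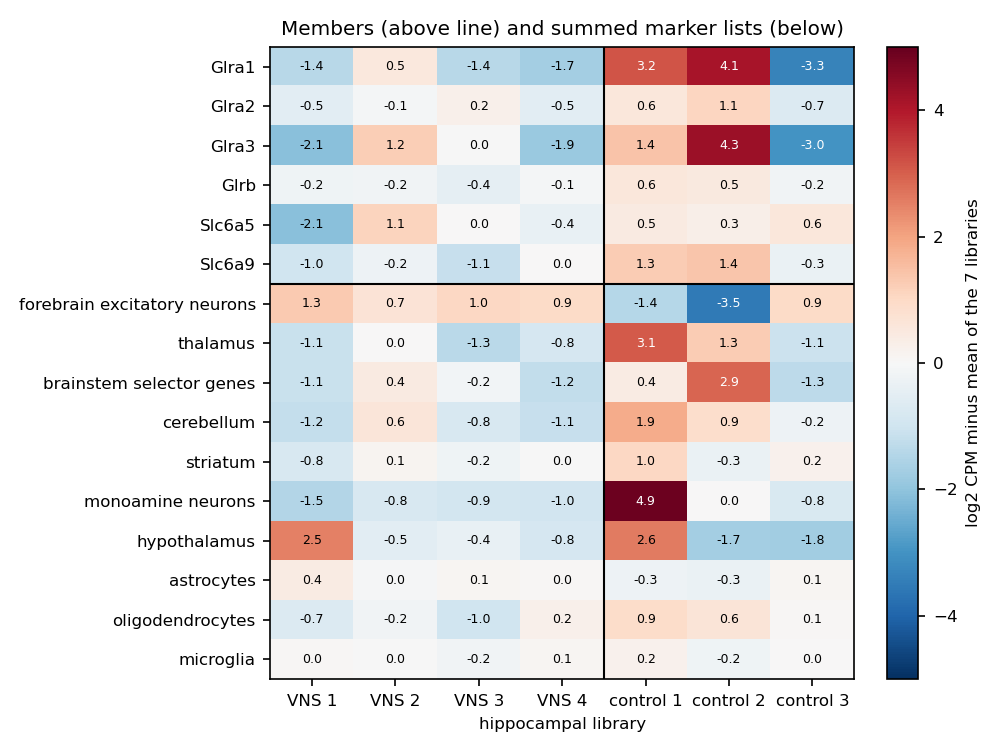
Log2 CPM of each gene (above the line) and of summed marker lists (below it) in each hippocampal library, as the difference from the mean of the 7 libraries, VNS at the left and controls at the right. Glra1 is at 3.2 and 4.1 in controls 1 and 2, where forebrain excitatory markers are at -1.4 and -3.5, while Slc6a5 is at 0.5 and 0.3 there.

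The records with profiles most like each member were found among 12000 named records by the root mean square difference in centred log2 CPM over the 7 hippocampal libraries. This is a description, since the libraries differ in marker levels and in depth, and such differences can bear on many records at once. For Glra1 they were the homeobox and forkhead genes Foxb1, Barhl2 and Lhx5 (differences of 0.69, 0.74 and 0.76). For example, Barhl2 had 0.388 CPM in VNS library 2 and 0 in the other VNS libraries, against 1.77, 7.94 and 0 CPM in control libraries 1 to 3. For Glra3 they were Barhl1, Baiap3 and Calb2, a calcium-binding protein gene (0.61, 0.63 and 0.71). Baiap3 was at 2.56, 19.1, 7.11 and 3.72 CPM in the VNS libraries, in order, and at 22.7, 140.3 and 4.95 CPM in control libraries. Lhx5, Barhl1 and Calb2 are also in the marker lists above. For Glra2 the nearest were Ace, Sparc and Slc4a4 (0.11, 0.14 and 0.16), of which Sparc, a matrix protein gene, and Slc4a4, a bicarbonate transporter gene, are known from astrocytes. Glrb was nearest to Cfap126, Lynx1 and Got1 (0.06, 0.06 and 0.07). Slc6a9 was nearest to Grip2, Car14 and Prima1 (0.14, 0.19 and 0.20). Slc6a5 was nearest to Sulf1, B3gnt4 and Nhsl3 (0.23, 0.25 and 0.28), and Sulf1, a heparan sulphate sulphatase gene, was at 1.81, 11.3, 5.29 and 3.96 CPM in VNS libraries and at 8.08, 7.70 and 6.38 CPM in controls. Among members, Glra2 and Glrb were the closest pair (0.43) and Glra1 and Slc6a5 the farthest (2.36).

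Other genes of the glycine pathway were taken from lists chosen for their known roles. Of 26 tested hippocampal records, 0 passed in either direction (0% of all records tested). Of them 8 had positive and 18 negative values, where 50.8% of all tested records were negative. The median log2 fold change was -0.22 against -0.01 for all records. These values include control libraries 1 and 2, which were low in forebrain excitatory markers. In the receptor-anchoring list, 0 of 5 tested records passed (median 0.04). Gephyrin (Gphn) was at 66.5 ± 5.07 CPM in VNS (SD, n = 4) and 66.0 ± 8.91 CPM in controls (SD, n = 3). The adhesion gene Nlgn2 was at 249.7 ± 7.27 CPM in VNS (SD, n = 4) and 237.9 ± 25.6 CPM in controls (SD, n = 3). Gphn lay between 61.9 and 73.0 CPM in VNS libraries and between 56.8 and 74.5 CPM in controls, the same libraries in which Glra1 spanned 179.2-fold.

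Inhibitory transmitter genes had 0 of 5 passing, with a median of -0.80. Slc32a1, the vesicular carrier shared by GABA and glycine, was at 48.8 to 71.4 CPM in VNS libraries and at 112.8, 171.9 and 55.3 CPM in control libraries 1 to 3. The GABA transporter gene Slc6a11 was at 57.4 to 122.5 CPM in VNS libraries and at 324.5, 547.9 and 70.7 CPM in control libraries. The GABA synthesis gene Gad1 was at 190.0 ± 16.0 CPM in VNS (SD, n = 4) and 274.3 ± 118.6 CPM in controls (SD, n = 3). Each of these was highest in control library 2. Glycine and serine metabolism genes had 0 of 8 passing (median -0.12), with Psat1 at 73.7 ± 12.9 CPM in VNS and 76.9 ± 8.97 CPM in controls, and Dld at 44.5 ± 6.07 CPM in VNS and 52.6 ± 7.45 CPM in controls (SD, n = 4 and n = 3). Carriers of neutral amino acids had 0 of 7 passing (median -0.56). For Slc38a1 the log2 fold change came to -0.92 (SE 0.27) and for Slc38a2 to -0.68 (SE 0.20), each with an adjusted p = 0.402 (edgeR quasi-likelihood test). Slc38a2 was at 90.7 to 125.7 CPM in VNS libraries and at 198.7, 209.1 and 130.7 CPM in control libraries. Of the glycine-binding NMDA receptor subunits, the 1 record tested was Grin3b (0.34, SE 0.24, adjusted p = 0.505, edgeR), while the 8 records of Grin1 had 0 counts in all 7 libraries and were not tested. Counting was per transcript record, and other genes with several records, such as Aqp4, also had 0 counts, so these values do not show that Grin1 was not expressed.

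In cortex the choice of genes did not use the counts, and members that passed the filter could be tested. The libraries had few reads assigned to records, 329130 to 435296 counts, and 3 counts correspond to 7.09 to 9.83 CPM. Glra2, Glra3 and Slc6a5 had 0 counts in all 8 cortex libraries, which, with 3 counts taken as the limit of a count of 0, allows up to 9.31 CPM in a VNS and up to 9.83 CPM in a control library. The exact two-sided 95% Poisson bound used for the other intervals is wider, up to 11.4 CPM in VNS and 12.1 CPM in control libraries, so the levels seen in most hippocampal libraries would not have been detectable. Both limits hold only for the strand that was counted, which may not be that of these genes, as set out below. Glra1 had 2, 0, 1 and 0 counts in VNS libraries 1 to 4 and 0, 0, 1 and 0 in control libraries 1 to 4. Glrb had 14, 2, 4 and 2 counts in VNS libraries and 5, 6, 1 and 2 in control libraries, and it did not pass the filter. Only Slc6a9 was tested, with the limit that its counts may come from the other strand, as set out below. It had 6, 7, 7 and 15 counts in VNS and 12, 22, 21 and 6 in control cortex, or 18.6, 20.8, 18.8 and 41.3 CPM against 39.3, 52.0, 67.2 and 17.5 CPM. The groups overlapped, since VNS library 4 was above 2 controls and control library 4 below every VNS library. The means were 24.9 ± 11.0 CPM in VNS and 44.0 ± 21.0 CPM in control cortex (SD, n = 4 each). The log2 fold change was -0.69 (SE 0.43, adjusted p = 0.99975, edgeR quasi-likelihood test), beside 0.0257% of 3884 records called. Every VNS library lay above every control library for 1.26% of the cortex records tested and below for 1.03%.

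Which strand a cortex count comes from is uncertain. A kit that marks strand is named for these libraries and strand option 1 was set in counting. Records that overlap a record on the other strand held 35.5% of cortex counts, against 9.58% in hippocampus, although they are 3.79% of records. Ccdc24, the partner of Slc6a9, was at 26.8 to 62.1 CPM in VNS and 42.5 to 98.3 CPM in control cortex, far above its hippocampal values. Neurod6 was at 0 to 12.4 CPM in VNS and 0 to 19.7 CPM in control cortex. Of 13 tested cortex records of the glycine pathway lists, 0 passed, with 6 positive and 7 negative, where 52.1% of all tested cortex records were negative. Apart from Ccdc24 and the detection limits in cortex, levels were not compared between the tissues, which differed in RNA selection and in strand counting.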

How the data were processed

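Counts came from 8 cortex and 7 hippocampal rat libraries. The authors deposited raw counts for each RefSeq transcript record. Per the file headers the counter was featureCounts 1.4.6-p2, with strand option 1 in cortex and no such option in hippocampus. The tools in the submitters' processing notes are edgeR, Subread, Bowtie2, Trimmomatic, SAMtools 0.1.19 and FastQC 0.10.1, with build rn5. Record lengths in the same files gave levels per kilobase. A cortex column whose name adds a letter to its sample's description was assigned to that sample. Symbols came from RefSeq (GRCr8) for 17339 of 18278 records, used for names, and promoters came from RefSeq in the same build.

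Each tissue was fitted alone with edgeR 4.0.16 under R 4.3.3. The low-count filter was filterByExpr (minimum count 10, minimum total 15), library sizes were scaled by TMM, and the two-sided quasi-likelihood test used glmQLFTest on a glmQLFit, with a prior count of 2 for fold changes. P-values were adjusted by Benjamini-Hochberg over all records, with a threshold of 0.05. SE is the log2 fold change divided by the square root of the F statistic. The procedure was tested on simulated data. CPM use TMM-scaled library sizes and have no pseudocount. No pair of libraries agreed within sampling noise (chi-square over its degrees of freedom at least 3.44 in cortex and 25.1 in hippocampus).

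Members, lists, tests and alternatives were chosen with earlier results of these data known. Gphn, Glra4, Slc32a1, Slc6a11, Prox1, Ramp3, Aldh1l1, Gja1 and Slc1a2 were named after their values were seen. Also named were all members, the 2 records of highest mean hippocampal CPM in each list described, and the 3 nearest named records per member. Some genes that this rule names are not reported here. Alternatives were scaling by DESeq2 size factors or upper quartiles, no filter, limma-voom 3.58.1, DESeq2 1.42.0, counts summed per symbol, no ribosomal or 7SL RNA records, a prior count of 0.5, and libraries left out.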

Additional observations from a re-analysis of the deposited data

Results flagged for a closer look

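Dixon's criterion was used only to pick out single libraries far from the other 3 of their group, and chance picks out about 1 group in 20. The hippocampal values had served to choose the genes, and a lone count among libraries at 0 always meets the criterion, so nothing is read from how many were picked out. Glra1 in VNS hippocampal library 2 was at 3.06 CPM (63 counts), where the next VNS library was at 0.813 CPM. Glrb in VNS cortex library 1 was at 43.5 CPM (14 counts), against 10.8 CPM in the next. Slc6a9 in VNS cortex library 4 was at 41.3 CPM (15 counts), against 20.8 CPM in the next. Glra1 in control cortex library 3 was at 3.20 CPM, which is 1 count where the other controls had 0.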

How the results depend on the processing

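The number of hippocampal records called was 0 with all libraries, 17 with DESeq2, and 0 to 1377 when 1 library was left out, where 1377 was without control library 3 and the other 6 gave 0. It was 0 under each of the other alternatives. In cortex it was 1 with all libraries, 5 with no filter, 0 with limma-voom, and 0 to 4 with 1 library left out. It was 4 without control library 1 and 0 without VNS library 1 or 4 or control library 2, 3 or 4. The causes were not tested. Slc6a9 in cortex stayed negative in 16 of 16 alternatives (-0.97 to -0.44, adjusted p from 0.969 to 1). Hippocampal log2 fold changes kept their sign under each alternative run, except for Glra1, Glra2 and Glra3 without control libraries 1 and 2. Under limma-voom Slc6a5 was at -1.27, and without 1 library Glra1 ran from -4.58 to -2.78, Glra2 from -1.06 to -0.30, Glra3 from -3.61 to -0.62 and Slc6a9 from -1.83 to -1.19. Without control libraries 1 and 2, the lone control is assumed to vary like the VNS libraries. No paired analysis was possible because the labels name no pairs, and the numbers in the sample titles do not recur between tissues. Low counts limit Glra1 and Glra3 in VNS library 3 and all members in cortex.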

Other observations

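Other regional genes were high in single hippocampal libraries. Th, which makes catecholamines, was at 0.430 to 1.07 CPM in VNS libraries and at 47.6, 1.54 and 1.39 CPM in control libraries 1 to 3, and the dopamine transporter gene Slc6a3 was at 0 to 0.149 CPM in VNS libraries and at 73.7, 0.833 and 0.0828 CPM in controls. Monoamine neuron markers as a list summed to 1.51 to 2.43 CPM in VNS libraries and to 124.5, 4.20 and 2.49 CPM in controls. Every control was thus above every VNS library, with control library 1 by far the highest, whereas Glra1 and Glra3 were higher in control library 2. Hypothalamic markers summed to 47.7, 5.83, 6.50 and 4.68 CPM in VNS libraries 1 to 4 and to 50.3, 2.59 and 2.46 CPM in controls. Their leading genes were Trh, at 44.3 CPM in VNS library 1 and 47.3 CPM in control library 1, and Pomc, at 0.830 to 4.47 CPM in VNS and 1.20 to 1.45 CPM in control libraries. Striatal markers summed to 69.7 to 136.1 CPM in VNS and 253.1, 98.1 and 140.9 CPM in control libraries 1 to 3. Hoxb3 and Hoxb4 were at 4.07 and 2.44 CPM in VNS library 3 and at 0 in the other VNS libraries, with Hoxb3 at 0 to 0.0362 CPM and Hoxb4 at 0 in controls.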
